A study of Homo sapiens with 11 samples.

Results

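This account describes 10 genes that restrain MAP kinase signalling, read in RNA-seq libraries of ARPE-19 cells that expressed Oct4, Sox2, Klf4 or all of these factors. The genes were chosen by symbol: the dual-specificity phosphatases DUSP1, DUSP2, DUSP4, DUSP5, DUSP6 and DUSP10, the Sprouty genes SPRY2 and SPRY4, and the Sprouty-related genes SPRED1 and SPRED2. Each symbol matched 1 of the 60605 features of the deposited table, and all 10 passed the filter on low values, so that no gene was left out. ARPE-19, an established cell line, was derived from human retinal pigment epithelium (RPE), the pigmented layer that supports the photoreceptors. Stable lines expressed an open reading frame for 4 days before polyadenylated RNA was sequenced: GFP as the control (3 libraries), Oct4 (2 libraries), Sox2 (2 libraries), Klf4 (2 libraries), or OSK, which is Oct4, Sox2 and Klf4 in one line (2 libraries). The library names of the factor lines carry the letters mC, whereas those of the GFP control do not. Their meaning is not stated in the labels. A change shared by all factor lines cannot be told apart from an effect of this difference. No drug or growth factor treatment is given for any group. The labels do not say whether replicate libraries came from separate cultures, how the lines were made or whether a line is 1 clone, so the p-values measure only the spread between these libraries, which may be technical. The study used the table to look at candidate genes of resistance to oxidative stress.

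MAP kinases pass on signals from growth factor receptors and from stress. The ERK branch runs from receptor tyrosine kinases through RAS, RAF and MEK to ERK, and the p38 and JNK branches respond mainly to stress and cytokines. Dual-specificity phosphatases of this family remove phosphate from the threonine and the tyrosine in the activation loop of MAP kinases. Many of them, and the Sprouty and SPRED genes, are transcribed when the pathway is active, which makes them feedback inhibitors, and the level of DUSP6 or SPRY4 mRNA is often read as an output of ERK. Pigment epithelial cells use these pathways in proliferation, in wound closure and in their response to oxidants.

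The promoters of 3 members are shown as examples: DUSP1 and DUSP2 fell in the Oct4 and the Sox2 line, whereas SPRY2 rose slightly in both. They do not stand for all members, and the promoter of DUSP6, which rose most, is not shown. The windows hold 250 bases before the RefSeq gene start on GRCh38.p14, written 5′ to 3′ on the gene's own strand, which is the minus strand for all 3. They lie at chr5:172771196-172771445 for DUSP1, chr2:96145441-96145690 for DUSP2 and chr13:80341127-80341376 for SPRY2. Capitals mark matches on either strand to the searched motifs: the cAMP response element TGACGTCA, the AP-1 site TGANTCA, the octamer ATGCAAAT, a SOX core ACAANG, a KLF4 core GGGNGTG, the GC box GGGCGGG, an ETS core CCGGAAG and the CArG box.
DUSP1: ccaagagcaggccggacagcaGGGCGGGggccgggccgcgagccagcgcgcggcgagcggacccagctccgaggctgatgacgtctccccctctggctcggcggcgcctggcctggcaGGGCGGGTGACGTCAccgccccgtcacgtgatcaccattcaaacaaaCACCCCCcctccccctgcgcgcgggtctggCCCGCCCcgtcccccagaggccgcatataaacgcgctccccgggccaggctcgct
DUSP2: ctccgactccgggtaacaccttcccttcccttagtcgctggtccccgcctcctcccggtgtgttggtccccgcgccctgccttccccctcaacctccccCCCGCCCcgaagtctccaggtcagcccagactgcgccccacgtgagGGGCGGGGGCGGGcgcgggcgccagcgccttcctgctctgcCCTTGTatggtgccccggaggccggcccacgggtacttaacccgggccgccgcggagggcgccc
SPRY2: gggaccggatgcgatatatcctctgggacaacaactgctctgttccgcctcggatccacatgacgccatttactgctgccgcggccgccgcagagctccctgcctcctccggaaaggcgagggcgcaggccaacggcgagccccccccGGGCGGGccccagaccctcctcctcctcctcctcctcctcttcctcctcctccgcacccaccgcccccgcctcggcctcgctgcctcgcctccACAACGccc

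The DUSP1 window held 1 full cAMP response element, which begins 125 bases before the start and directly follows a GC box, and 1.65% of the 35116 RefSeq windows of this length held that motif. It also held 1 KLF4 core (27.1% of windows) and 3 GC boxes (31.5% of windows). The DUSP2 window held 3 GC boxes, of which the pair in the longer run of capitals overlap, and 1 SOX core (30.9% of windows). The SPRY2 window held 1 GC box and 1 SOX core. None of the 3 windows held the letters of the AP-1 site, the octamer, the ETS core or the CArG box, which 6.57%, 1.63%, 8.52% and 1.16% of windows held. All 3 windows were rich in G and C, with 74.4% in DUSP1, 74% in DUSP2 and 70.4% in SPRY2 against a median of 58.0% over all windows. These matches describe letters and are not evidence of binding.

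Before the results, the libraries were checked. Each held between 15053300 and 19791775 reads assigned to features. From 25853 to 26971 features had a read in 9 libraries, against 32493 in OSK replicate 1 and 42956 in GFP replicate 1, so these 2 libraries stand apart, and calls on the members that change without either are given with both values. The delivered factors matched the labels. POU5F1, which encodes Oct4, was at 66823 and 67326 normalised counts in the Oct4 line and at 19020 and 19542 in the OSK line, against at most 446 elsewhere. SOX2 was at 29106 and 29141 in the Sox2 line and at 17582 and 17764 in the OSK line, against at most 197 elsewhere. KLF4 was at 22142 and 24205 in the Klf4 line and at 24202 and 24470 in the OSK line, against at most 248 elsewhere. The OSK line therefore held less POU5F1 and SOX2 mRNA than the single lines, and the part of this in the comparisons of OSK with single factors was not tested. Among RPE genes, OTX2 and MITF were present in every library, whereas RPE65, DCT and TTR did not exceed 9.93 normalised counts in any, so the visual cycle enzyme that defines mature RPE was at or near 0. Summed over 13 RPE genes, the level was 13190 to 17540 in GFP, 4330 to 5021 in Oct4, 2457 to 2519 in Sox2, 8385 to 10460 in Klf4 and 5634 to 6033 in OSK. Of the 10 RPE genes tested, 8 were lower in Oct4, 7 in Sox2, 9 in OSK and 3 in Klf4, where 1 was higher. The keratins KRT8 and KRT18 were at 3097 or more in every library, and the sum of 5 keratin and adhesion genes was 26040 to 29060 in GFP, 20270 to 20870 in Oct4, 30340 to 30500 in Sox2, 20840 to 21800 in Klf4 and 12610 to 13700 in OSK. The sum of 6 fibroblast genes was 13850 to 16420 in GFP, 10270 to 13200 in Oct4 and 12820 to 15510 in Sox2. It was 7287 to 8526 in Klf4 and 5130 to 5930 in OSK. Over the libraries PDGFRB was at 4529 to 11534 and COL1A1 at 557 to 8369. THY1 did not exceed 71.5 in any library, COL3A1 12.9, and DCN and LUM 12.3. Of the 3 fibroblast genes tested, 1 was lower in Oct4, 2 in Sox2, 2 in Klf4 and 2 in OSK, and 1 was higher in Sox2. Among 6 pluripotent cell genes, NANOG did not exceed 16.9, while LIN28A was at 104 to 311 over the libraries. None of the 6 was called higher in any line, and 1 was lower in Oct4, 5 in Sox2, 3 in OSK and none in Klf4. The 3 melanocyte genes did not exceed 34.7, and 1 was called higher in Sox2 and 1 in Klf4. Of 9 immune and endothelial markers none exceeded 73.5. Their highest sums, 89.4 and 140, were both in GFP libraries, among which the lowest sums were 5.05 and 2.91. Summed over 10 proliferation genes, the level was 2568 to 2870 in GFP, 2527 to 2582 in Oct4, 4727 to 4852 in Sox2, 8809 to 10140 in Klf4 and 8359 to 8642 in OSK. All 10 of these genes passed the test as higher in Klf4, 9 in OSK, 7 in Sox2 and 2 in Oct4, where 2 others were lower. Several of these marker sums differed between the lines, and not in the order of the number of members called. Their part in the results was not tested.

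Values are normalised counts: gene counts that the authors had divided by 1 factor per library. A gene was called when its adjusted p from limma, fitted over 18828 genes on log2(value + 1), was under 0.05, and every log2 change is on that scale. In bulk RNA, fewer cells that express a gene and less of its RNA per cell cannot be told apart.

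Oct4 and Sox2 each moved the family in a split pattern: the phosphatases DUSP1, DUSP2, DUSP5 and DUSP10 fell, while DUSP6 rose, with all 4 Sprouty and SPRED genes in Oct4 and with SPRY2 and SPRED1 in Sox2. In the Oct4 line 9 of the 10 members were called, 5 higher and 4 lower, where 37.3% of all genes tested were called (20.1% higher, 17.2% lower). Without Oct4 replicate 1, 3 were higher, since SPRY2 and SPRED2 were lost. The Sox2 line had 7 of 10 called, 3 higher and 4 lower, against 41.6% of all genes (21.7% higher, 19.9% lower), and the calls on SPRY2 and SPRED1 were lost without Sox2 replicate 1, while SPRED2 was gained. In the Klf4 line 5 were called, with DUSP1 alone higher and DUSP2, SPRY2, SPRY4 and SPRED1 lower, against 33.5% of all genes (17.6% higher, 16.0% lower), and 6 were called without GFP replicate 1, with SPRED2 added. In the OSK line 5 were called, DUSP6 and SPRED2 higher and DUSP1, DUSP2 and DUSP10 lower, against 39.7% of all genes (19.7% higher, 20.0% lower). Without OSK replicate 1, one of the libraries that stand apart, 3 members were called in OSK, since DUSP1 and DUSP10 were lost, and without GFP replicate 1 there were 6, with SPRY2 added. The shares in the Klf4 and OSK lines are of 10 genes only and lie closer to the background than that of the Oct4 line. Of the 113 other pathway genes tested (lists below), 59.3% were called in Oct4, 68.1% in Sox2, 57.5% in Klf4 and 66.4% in OSK. The members and these lists were chosen with earlier results of these data known. The median log2 change of the members was 0.19 in Oct4, 0.03 in Sox2, -0.23 in Klf4 and -0.03 in OSK, beside medians over all genes between -0.02 and -0.01. All 4 comparisons share the GFP libraries, so agreement between lines in these counts is not independent.

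**Figure D1:**
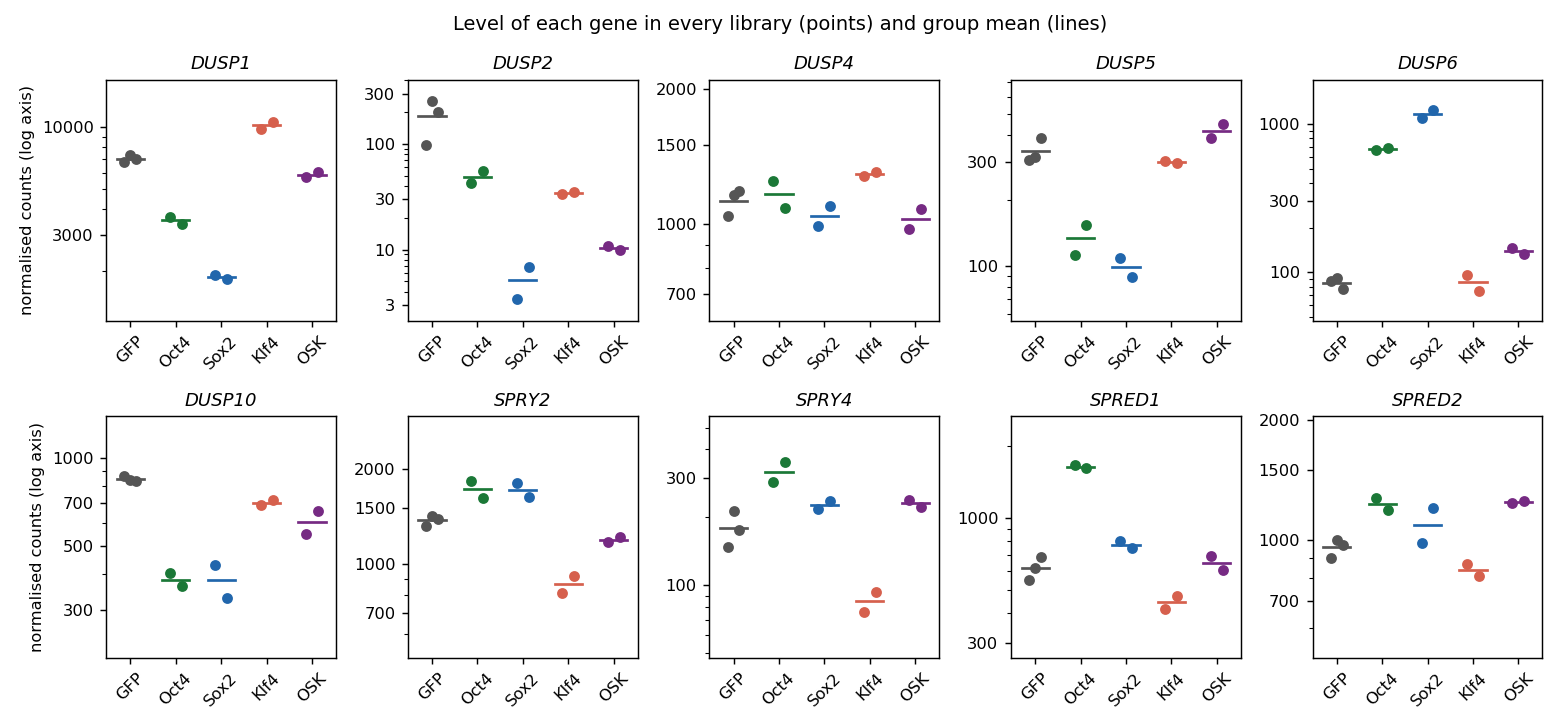
Normalised counts (log axis) of each of the 10 genes, with 1 point per library and a line at the group mean, for 3 GFP libraries and 2 libraries each of Oct4, Sox2, Klf4 and OSK. DUSP6 stands at 662 to 1236 in Oct4 and Sox2 libraries against 75.4 to 145 in all others, and DUSP1 at 1831 to 3659 in Oct4 and Sox2 against 5726 to 10642.

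DUSP6, a cytoplasmic phosphatase specific for ERK, had the largest rise of the members. It was at 87.4, 91.1 and 77.8 normalised counts in the GFP libraries. The Oct4 libraries held 662 and 686, and the Sox2 libraries 1089 and 1236. The Klf4 libraries held 96.0 and 75.4, and the OSK libraries 145 and 133. Oct4, Sox2 and OSK libraries all lay above every GFP library, while the Klf4 values overlapped them. The rise was 7.89-fold in Oct4 (log2 change 2.97, SE 0.13, limma adjusted p = 8.62e-11) and 13.6-fold in Sox2 (log2 change 3.75, SE 0.13, limma adjusted p = 4.72e-12). In OSK it was 1.63-fold (log2 change 0.70, SE 0.13, limma adjusted p = 0.000444), although that line carries both factors, and Klf4 differed by -0.00 (limma adjusted p = 0.993). The levels ran Sox2, Oct4, OSK, then Klf4 and GFP, of which only the last step was not called (the Sox2 to Oct4 step had limma adjusted p = 0.000471). DUSP6 lies on chromosome 12 at 89347232-89353271 (minus strand, GENCODE annotation on GRCh38), and 1875 of its exon bases are shared with the antisense gene ENSG00000274021. That gene had 4 to 85 reads per library and was highest in Sox2 (75.2 and 72.8 normalised counts). Since the use of strand in counting is not given in the sources used here, its reads and those of DUSP6 cannot be fully told apart.

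DUSP1, an immediate early phosphatase of the nucleus that acts on p38, JNK and ERK, was the most abundant of the phosphatases and moved in every line. The GFP libraries held 6747, 7353 and 6979 normalised counts. The Oct4 libraries held 3659 and 3402, and the Sox2 libraries 1915 and 1831. The Klf4 libraries held 9856 and 10642, and the OSK libraries 5726 and 6059. No 2 groups overlapped. DUSP1 fell in Sox2 to 26.7% of the GFP mean (log2 change -1.91, SE 0.07, limma adjusted p = 5.42e-12). The decrease in Oct4 was to 50.2% (log2 change -0.99, SE 0.07, limma adjusted p = 1.15e-08). It rose 1.46-fold in Klf4 (log2 change 0.54, SE 0.07, limma adjusted p = 1.17e-05). The smaller decrease in OSK, to 83.9% (log2 change -0.25, limma adjusted p = 0.00683), was lost with TMM scaling over all features and without OSK replicate 1, with adjusted p up to 0.206 over the settings tried. The order Klf4, GFP, OSK, Oct4, Sox2 had a called difference at every step, and DUSP1 was called in all 10 comparisons of 2 groups. The gene lies on chromosome 5 at 172768090-172771195, minus strand.

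DUSP2, an inducible nuclear phosphatase known best from lymphocytes, was low in GFP and lower in all 4 lines. Its GFP libraries held 98.3, 254 and 202 normalised counts, a wide spread in which replicate 1 is the lowest. The Oct4 libraries held 43.0 and 54.9, the Klf4 libraries 33.5 and 35.4, the OSK libraries 10.8 and 9.90, and the Sox2 libraries 3.37 and 6.85. All 8 lay below every GFP library. DUSP2 was 36.2-fold lower in Sox2, with a counting interval of 20.2 to 72.5 (exact 95% Poisson interval on the 11 Sox2 reads, which covers counting error only) and a log2 change of -4.88 (SE 0.39, limma adjusted p = 4.5e-08). The log2 changes were -3.93 in OSK (limma adjusted p = 6.48e-07), -2.28 in Klf4 (limma adjusted p = 0.000237) and -1.80 in Oct4 (limma adjusted p = 0.00155). Without GFP replicate 1 they became -5.28, -4.32, -2.68 and -2.20 in Sox2, OSK, Klf4 and Oct4. Neither the difference between Oct4 and Klf4 (limma adjusted p = 0.397) nor that between OSK and Sox2 (limma adjusted p = 0.0852) passed the test, though OSK was called above Sox2 without GFP replicate 1 (limma adjusted p = 0.0357) and without Sox2 replicate 2. The OSK level lay below that of Klf4 (limma adjusted p = 0.01), a call that was lost without OSK replicate 2 or without either Klf4 replicate. DUSP2 lies on chromosome 2 at 96143166-96145440, minus strand.

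DUSP5 and DUSP10 followed DUSP1 in falling with Oct4 and with Sox2. DUSP5, a nuclear phosphatase specific for ERK, was at 306, 318 and 388 normalised counts in GFP, at 113 and 155 in Oct4 and at 109 and 89.1 in Sox2. Klf4 libraries held 304 and 297 and OSK libraries 389 and 450, each just outside the GFP range and on opposite sides of it. DUSP5 fell to 39.6% of GFP in Oct4 (log2 change -1.34, SE 0.15, limma adjusted p = 3.7e-06). It fell to 29.4% in Sox2 (log2 change -1.76, SE 0.15, limma adjusted p = 1.35e-07). The differences in Klf4 (log2 -0.16, limma adjusted p = 0.473) and OSK (log2 0.32, limma adjusted p = 0.113) did not pass. Its groups ran OSK, GFP, Klf4, Oct4, Sox2, with a called step only from Klf4 to Oct4 (limma adjusted p = 2.79e-05). The gene lies on chromosome 10 at 110497838-110511544, plus strand, and its pseudogenes DUSP5P1 and DUSP5P2 had at most 5 and 2 reads in any library.

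DUSP10 prefers p38 and JNK over ERK. The GFP libraries held 867, 840 and 833 normalised counts, the Oct4 libraries 402 and 363, and the Sox2 libraries 431 and 331. Klf4 was at 687 and 715 and OSK at 549 and 657, so that every line lay below GFP. The gene fell to 45.2% of GFP in Oct4 (log2 change -1.15, SE 0.11, limma adjusted p = 5.42e-07) and to 45% in Sox2 (log2 change -1.16, SE 0.11, limma adjusted p = 3.48e-07). In OSK it fell to 71.2% (log2 change -0.50, limma adjusted p = 0.00177), which was not called without OSK replicate 1 (limma adjusted p = 0.0508), and in Klf4 the log2 difference was -0.27 (limma adjusted p = 0.0696). Only the step from OSK to Oct4 in the order GFP, Klf4, OSK, Oct4, Sox2 was called (limma adjusted p = 0.000379). DUSP10 lies on chromosome 1 at 221701424-221742176, minus strand.

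DUSP4, an inducible nuclear phosphatase that acts on ERK and JNK, was the steadiest member. GFP libraries held 1043, 1161 and 1185 normalised counts, Oct4 libraries 1251 and 1087, Sox2 libraries 991 and 1097, Klf4 libraries 1283 and 1309, and OSK libraries 977 and 1085. Oct4, Sox2 and OSK overlapped GFP, and no comparison with GFP was called (log2 differences from -0.13 to 0.20, limma adjusted p from 0.0874 to 0.702). Klf4, the highest group, differed from Sox2 (Sox2 minus Klf4, log2 -0.31, limma adjusted p = 0.0137) and from OSK (OSK minus Klf4, log2 -0.33, limma adjusted p = 0.0184). Those calls were lost in 3 and 5 of the 21 alternative settings, among them TMM scaling over all features and leaving out Klf4 replicate 2. The gene lies on chromosome 8 at 29333064-29350668, minus strand.

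**Figure D2:**
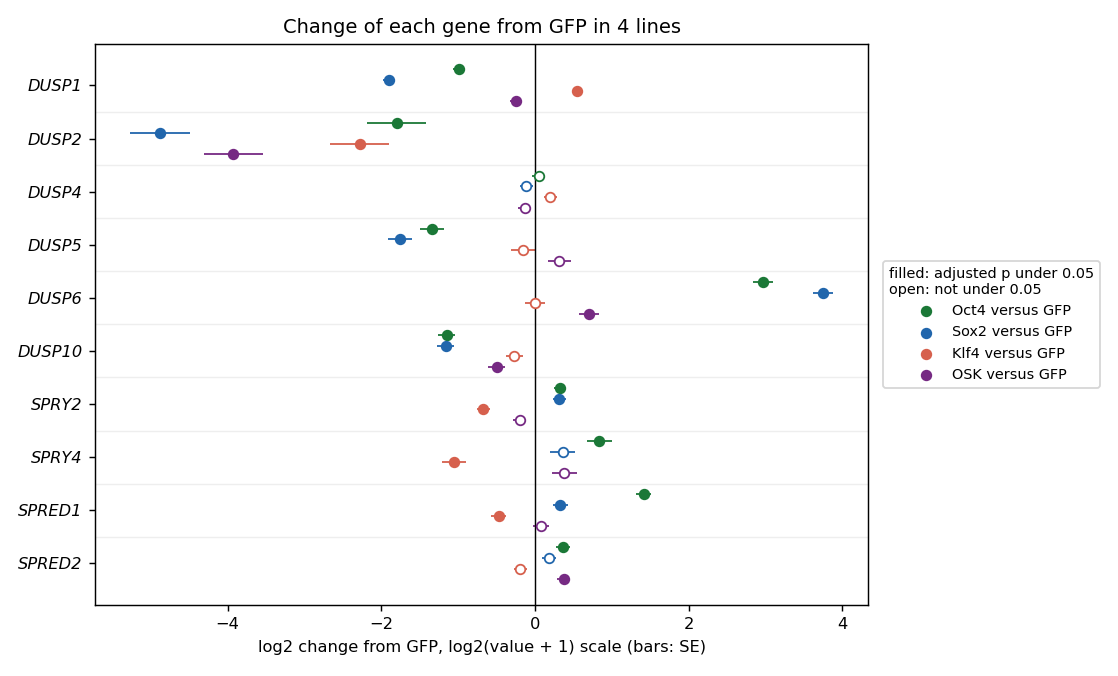
Log2 change from GFP on the log2(value + 1) scale for each gene in the Oct4, Sox2, Klf4 and OSK lines, with bars for the standard error; filled points have a limma adjusted p under 0.05 and open points do not. DUSP6 lies at 2.97 and 3.75 in Oct4 and Sox2, DUSP2 is below 0 in all 4 lines, and the 4 Sprouty and SPRED genes lie above 0 in Oct4 and below 0 in Klf4.

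Per kilobase of exon, DUSP1 made up most of the mRNA of the 6 phosphatases in every library, and its share changed with the factor. It took 82.8% to 84.2% of their summed normalised counts per kilobase in GFP, 76.8% and 77.8% in Oct4, 61.5% and 62.8% in Sox2, 89.6% and 90.2% in Klf4, and 83.8% and 84.8% in OSK. DUSP6 took 0.402% to 0.475% in GFP but 6.13% and 6.74% in Oct4 and 15.6% and 18.1% in Sox2. In Klf4 its share was 0.279% and 0.380%, and in OSK 0.802% and 0.938%. The share of DUSP1 thus fell and that of DUSP6 rose in Oct4 and more so in Sox2. The mean share of DUSP4 rose too, from 3.73% in GFP to 7.11% in Oct4 and 9.64% in Sox2, although its level was not called against GFP. Shares of the other genes also rise when DUSP1, the largest part of the sum, falls. The ratio of DUSP1 to DUSP6 per kilobase was 177 to 206 in GFP, 12.7 and 11.4 in Oct4, 4.03 and 3.40 in Sox2, 236 and 324 in Klf4, and 90.4 and 105 in OSK. The summed level per kilobase was 3970 to 4362 in GFP, 2331 and 2195 in Oct4, 1512 and 1476 in Sox2, 5448 and 5845 in Klf4, and 3345 and 3582 in OSK. No group overlapped another in that sum. Lengths are unions of annotated exons, and the transcript forms used in these cells are not known from the table.

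**Figure D3:**
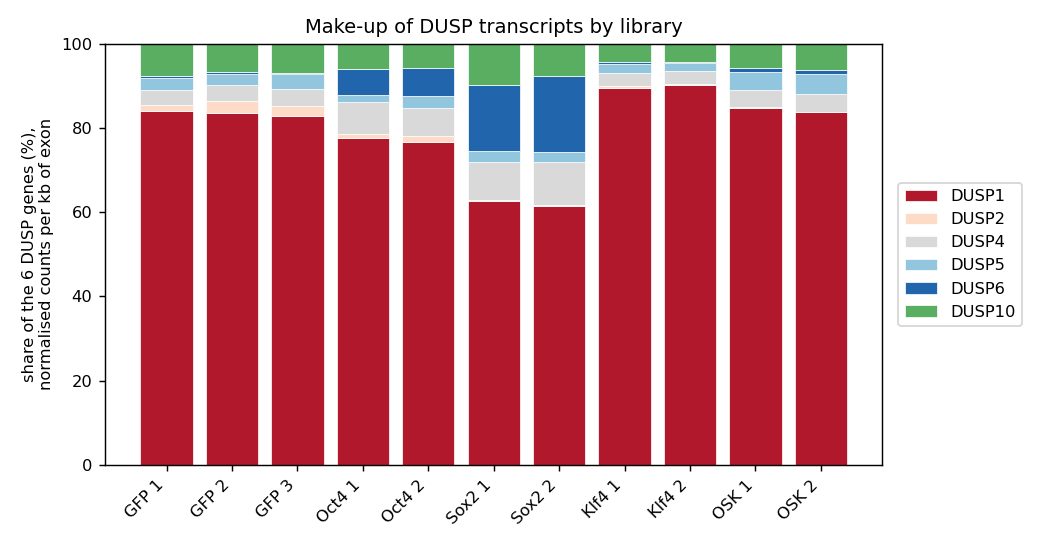
Share of each of the 6 phosphatase genes in their summed normalised counts per kilobase of exon (percent, stacked to 100), with 1 bar per library. DUSP1 takes 82.8% to 84.2% in GFP and 61.5% to 62.8% in Sox2, where DUSP6 takes 15.6% to 18.1%.

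The Sprouty and SPRED genes, which act upstream of ERK at the level of adaptors, RAS and RAF, moved in opposite directions in Oct4 and Klf4. All 4 rose in the Oct4 line, SPRY2 and SPRED1 also rose in Sox2, and SPRY2, SPRY4 and SPRED1 fell in Klf4. Their sum per kilobase of exon was 699 to 767 in GFP, 1094 and 1013 in Oct4, 914 and 894 in Sox2, 497 and 530 in Klf4, and 746 and 750 in OSK. Oct4 and Sox2 lay above the GFP range, Klf4 below it and OSK within it. SPRY2 had the highest level per kilobase of the 4 in every library, with 51.7% to 64.9% of their sum.

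SPRY2, which binds receptor adaptors and the ubiquitin ligase CBL, was at 1323, 1414 and 1383 normalised counts in GFP. The Oct4 libraries held 1827 and 1620, the Sox2 libraries 1804 and 1625, the Klf4 libraries 811 and 916, and the OSK libraries 1172 and 1216. Oct4 and Sox2 lay above GFP and the other lines below it. The rises were small, 1.25-fold in both (log2 0.33 in Oct4 with limma adjusted p = 0.00434, and 0.32 in Sox2 with limma adjusted p = 0.00423). Each was lost when replicate 1 of that line was left out (adjusted p = 0.0868 and 0.0864). In Klf4, SPRY2 fell to 62.9% of its GFP level (log2 change -0.67, SE 0.08, limma adjusted p = 7.51e-06). Its OSK difference of -0.20 did not pass (limma adjusted p = 0.057), although it did without GFP replicate 1 (limma adjusted p = 0.0321). The difference between Oct4 and Sox2 did not pass the test (limma adjusted p = 0.97), and OSK lay above Klf4 (limma adjusted p = 0.000933). The gene lies on chromosome 13 at 80335976-80340951, minus strand. The RefSeq promoter window starts upstream of that annotated start, at the most upstream of 3 RefSeq starts.

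SPRY4, an inhibitor of RAS activation, gave the widest range of the Sprouty genes. It was at 148, 213 and 175 normalised counts in GFP, at 287 and 350 in Oct4, at 218 and 237 in Sox2, at 76.3 and 93.7 in Klf4, and at 238 and 223 in OSK. Every Oct4, Sox2 and OSK library lay above GFP and every Klf4 library below. SPRY4 rose 1.78-fold in Oct4 (log2 change 0.84, SE 0.16, limma adjusted p = 0.00059) and fell to 47.6% of GFP in Klf4 (log2 change -1.06, SE 0.16, limma adjusted p = 8.37e-05). Its differences in Sox2 (log2 0.36, limma adjusted p = 0.0841) and OSK (log2 0.38, limma adjusted p = 0.0697) did not pass. The Oct4 level exceeded that of OSK (limma adjusted p = 0.0484) and of Sox2 (limma adjusted p = 0.0458) only narrowly, and these calls were lost in 9 and 10 of the 21 alternative settings. Its antisense gene SPRY4-AS1 had at most 16 reads in any library. SPRY4 lies on chromosome 5 at 142310427-142326455, minus strand.

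SPRED1 was highest in the Oct4 line. SPRED proteins bring neurofibromin, an inactivator of RAS, to the membrane, and loss of SPRED1 causes Legius syndrome. The Oct4 libraries held 1665 and 1620 normalised counts, against 547, 617 and 685 in GFP, 799 and 746 in Sox2, 415 and 470 in Klf4, and 693 and 607 in OSK. Both Oct4 libraries lay above every other library, and the Klf4 libraries lay below. SPRED1 rose 2.66-fold in Oct4 (log2 change 1.42, SE 0.10, limma adjusted p = 1.54e-08) and 1.25-fold in Sox2 (log2 0.33, limma adjusted p = 0.0135, lost without Sox2 replicate 1 at 0.122). It fell in Klf4 to 71.8% (log2 -0.47, limma adjusted p = 0.00146), and OSK differed from GFP by 0.08 (limma adjusted p = 0.58). SPRED1 took 18.4% and 19.4% of the per-kilobase sum of the 4 genes in Oct4, and from 9.47% to 11.3% in the other libraries. It lies on chromosome 15 at 38252326-38357249, plus strand.

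SPRED2, of the same function, was the only Sprouty or SPRED member called higher in OSK. The GFP libraries held 903, 1000 and 972 normalised counts, the Oct4 libraries 1276 and 1188, the Sox2 libraries 983 and 1200, the Klf4 libraries 867 and 809, and the OSK libraries 1235 and 1248. Oct4 and OSK lay above GFP, Klf4 below, and Sox2 overlapped it. SPRED2 rose in OSK (1.30-fold, log2 change 0.38, limma adjusted p = 0.00251) and in Oct4 (1.29-fold, log2 change 0.36, limma adjusted p = 0.00359, lost without Oct4 replicate 1 at 0.0524). In Sox2 (log2 0.18, limma adjusted p = 0.108) and Klf4 (log2 -0.19, limma adjusted p = 0.105) it did not pass, although the Klf4 difference did without GFP replicate 1 (limma adjusted p = 0.0457). No step in the order OSK, Oct4, Sox2, GFP, Klf4 passed the test (limma adjusted p from 0.105 to 0.936). The gene lies on chromosome 2 at 65310851-65432637, minus strand.

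Put side by side, the single lines differed most between Sox2 and Klf4, where all 10 members were called: DUSP6, SPRY2, SPRY4, SPRED1 and SPRED2 were higher in Sox2, and DUSP1, DUSP2, DUSP4, DUSP5 and DUSP10 were lower. Of all genes, 40.8% were called in that comparison (20.1% higher, 20.7% lower). Between Oct4 and Klf4, 8 members were called, the same 5 higher in Oct4 and DUSP1, DUSP5 and DUSP10 lower, against 41.7% of all genes (21.8% higher, 20.0% lower). Between Oct4 and Sox2, 5 were called, with DUSP1, DUSP2, SPRY4 and SPRED1 higher in Oct4 and DUSP6 lower, against 33.4% of all genes (18.0% higher, 15.4% lower), and SPRY4 was lost without OSK replicate 1 (limma adjusted p = 0.0591). DUSP1 was 1.89-fold higher in Oct4 than in Sox2 (log2 difference 0.91, limma adjusted p = 9.22e-08), DUSP2 9.58-fold higher (log2 difference 3.08, limma adjusted p = 2.91e-05) and SPRED1 2.13-fold higher (log2 difference 1.09, limma adjusted p = 9.55e-07).

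The OSK line was then compared with each single line. Against Oct4, 8 members were called: DUSP1, DUSP5 and DUSP10 were higher in OSK, and DUSP2, DUSP6, SPRY2, SPRY4 and SPRED1 were lower (40.3% of all genes, 18.4% higher and 21.9% lower), of which SPRY4 was lost without OSK replicate 1 (limma adjusted p = 0.104). Against Sox2, 5 were called: DUSP1, DUSP5 and DUSP10 were again higher, and DUSP6 and SPRY2 lower (40.5% of all genes, 20.0% higher and 20.5% lower). Without GFP replicate 1 there were 7 against Sox2, with DUSP2 higher (limma adjusted p = 0.0357) and SPRED1 lower (limma adjusted p = 0.0352), and without Sox2 replicate 2 there were 5 higher in OSK. Against Klf4, 8 were called: DUSP6, SPRY2, SPRY4, SPRED1 and SPRED2 were higher, and DUSP1, DUSP2 and DUSP4 lower (21.5% of all genes, 9.56% higher and 11.9% lower). The number lower than in Klf4 was 1 without either Klf4 replicate, DUSP4 was lost without OSK replicate 1 (limma adjusted p = 0.166), and DUSP5 was called higher without GFP replicate 1 (limma adjusted p = 0.0391). DUSP6 was 8.35-fold lower in OSK than in Sox2 (log2 difference -3.05, SE 0.14, limma adjusted p = 1.55e-10) and 4.84-fold lower than in Oct4 (log2 difference -2.27, SE 0.14, limma adjusted p = 4.54e-09). DUSP5 was 4.24-fold higher in OSK than in Sox2 (log2 difference 2.08, limma adjusted p = 6.16e-08) and 3.14-fold higher than in Oct4 (log2 difference 1.66, limma adjusted p = 8.09e-07). SPRY4 was 2.72-fold higher in OSK than in Klf4 (log2 difference 1.44, limma adjusted p = 1.59e-05).

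The change in OSK was also tested against the sum of the 3 single-factor changes, all on the log2 scale, where a difference of 0 would mean that the changes add. For 6 of the 10 members the difference was called, against 35.9% of all genes (15.6% higher, 20.3% lower), and in each of the 6 the OSK change was nearer to 0 than the sum. How often this holds among all called genes was not counted, so it cannot be read as particular to the members. DUSP6 had a sum of 6.72 and an OSK change of 0.70, a difference of -6.02 (SE 0.26, limma adjusted p = 3.11e-10). For DUSP5 the sum was -3.25 and the OSK change 0.32 (difference 3.57, SE 0.31, limma adjusted p = 2.34e-07). DUSP2 had a sum of -8.96 and an OSK change of -3.93 (difference 5.04, SE 0.77, limma adjusted p = 9.02e-05, or 5.84 without GFP replicate 1), and a sum of that size lies below what a value of 0 would give. DUSP1 (sum -2.36, difference 2.10, limma adjusted p = 1.15e-08) and DUSP10 (sum -2.58, difference 2.09, limma adjusted p = 2.1e-06) likewise fell by less in OSK than the sum. SPRED1 had a sum of 1.27 against 0.08 in OSK (difference -1.19, SE 0.20, limma adjusted p = 0.000193). For DUSP4, SPRY2, SPRY4 and SPRED2 the difference from the sum did not pass the test (differences from -0.27 to 0.24, limma adjusted p from 0.25 to 0.938). The median of all genes in this comparison was -0.02, and -0.14 with TMM scaling over all features, under which the same number of members was called. The lower POU5F1 and SOX2 mRNA of the OSK line stands beside this result too.

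**Figure D4:**
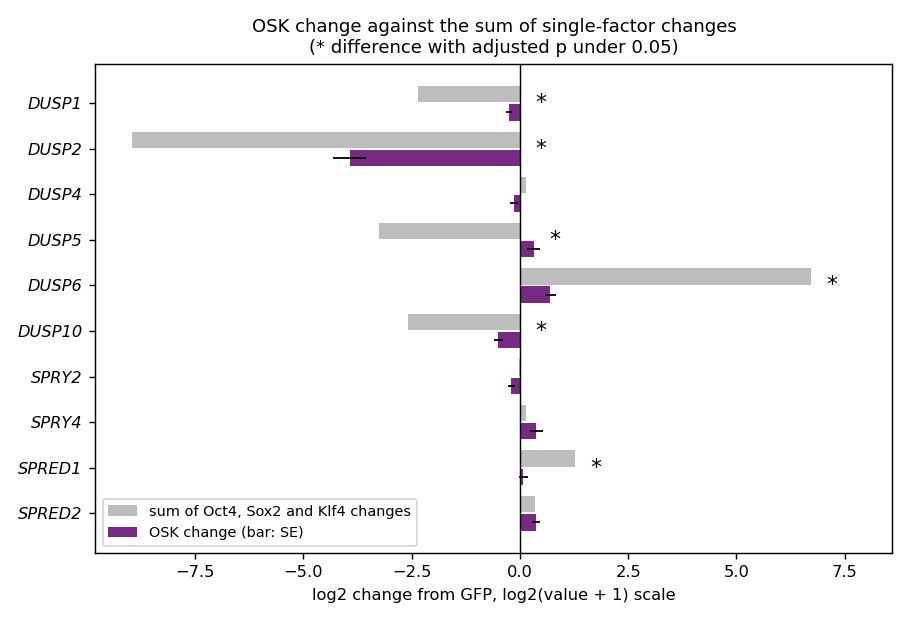
Log2 change from GFP in the OSK line (purple, with bars for the standard error) beside the sum of the Oct4, Sox2 and Klf4 changes (grey), with an asterisk where the limma adjusted p of the difference is under 0.05. In the 6 marked genes, DUSP1, DUSP2, DUSP5, DUSP6, DUSP10 and SPRED1, the OSK bar is shorter than the grey bar.

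Other genes of the pathway were read from lists grouped by role, compared with the same background as above. A list of 12 other MAP kinase phosphatases and atypical members of the dual-specificity family, STYX among them, held 10 that could be tested. DUSP9 and DUSP26 had at most 5 and 18 reads. Of the 10, 3 were higher and 5 lower in Oct4, and 3 and 3 in Sox2. In Klf4 3 were higher and 3 lower, and in OSK 4 and 2. The medians of the list were -0.35, 0.07, 0.02 and -0.01 in that order. The shares called were 80%, 60%, 60% and 60%, against 37.3%, 41.6%, 33.5% and 39.7% of all genes. DUSP7, like DUSP6 a cytoplasmic phosphatase of ERK, rose 4.91-fold in Klf4 (log2 change 2.30, limma adjusted p = 3.09e-11), fell in Oct4 (log2 -0.59, limma adjusted p = 4.89e-05) and was at 454 and 519 normalised counts in Sox2 against 519 to 549 in GFP, where the difference was not called. DUSP14 rose 2.87-fold in Oct4 and 2.23-fold in Sox2 and fell to 69.9% of GFP in Klf4 (limma adjusted p = 7.42e-10, 1.2e-08 and 0.000119). DUSP3, a small phosphatase of ERK and JNK, fell in all 4 lines, to 43.5% of GFP in OSK (limma adjusted p = 4.09e-10). DUSP19 rose in all 4, from 23.3 to 39.7 normalised counts in GFP to 85.6 and 92.4 in OSK (limma adjusted p = 7.73e-05), although its call in Sox2 (limma adjusted p = 0.00764) was lost without Sox2 replicate 2 (limma adjusted p = 0.0695).

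Of 11 other feedback inhibitors of receptor tyrosine kinase signalling 10 could be tested (SPRY3 had at most 11 reads). In Oct4 6 were higher and 2 lower, in Sox2 6 and 2, in Klf4 4 were lower and 6 were not called, and in OSK 4 were higher and 5 lower. The medians were 0.41, 0.41, -0.25 and -0.13. The shares called were 80%, 80%, 40% and 90%, against 37.3%, 41.6%, 33.5% and 39.7% of all genes. SPRY1, unlike SPRY2 and SPRY4, fell in all 4 lines, from 224 to 260 normalised counts in GFP to 77.7 and 99.5 in Klf4 (log2 change -1.46, limma adjusted p = 1.03e-05) and to 108 and 125 in Oct4 (log2 change -1.06, limma adjusted p = 2e-04). SPRED3 rose 2.12-fold in Sox2 (limma adjusted p = 0.000317) and fell to 50.8% in Klf4 (limma adjusted p = 0.000754). ERRFI1, which blocks the EGF receptor, rose 2.36-fold in Oct4 and 1.81-fold in OSK (limma adjusted p = 1.94e-07 and 9.86e-06). CBL, the ubiquitin ligase that removes active receptors, rose 3.59-fold in Sox2 (limma adjusted p = 5.96e-11). SOCS3, an inhibitor of cytokine receptors, fell in all 4 lines and most in Sox2, to 15.9% of GFP (limma adjusted p = 4.71e-10).

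Among the inputs, receptor tyrosine kinases were more often lower than higher in every line. Of 17, 1 was higher and 7 lower in Oct4, and 2 and 9 in Sox2. In Klf4 5 were higher and 8 lower, and in OSK 3 and 8. The medians were -0.34, -0.59, -0.34 and -0.29. The shares called were 47.1%, 64.7%, 76.5% and 64.7%, against 37.3%, 41.6%, 33.5% and 39.7% of all genes. ERBB4, a neuregulin receptor, fell to 32.0% of GFP in Oct4, 25.5% in Sox2 and 42.4% in OSK (limma adjusted p = 1.23e-08, 1.12e-09 and 2.95e-07). FGFR3 rose 4.06-fold in Klf4 (limma adjusted p = 3.58e-07) and fell to 48.7% in Sox2 (limma adjusted p = 0.000215). ERBB3 rose in Klf4, where it was at 379 and 269 normalised counts (limma adjusted p = 8.33e-05), against 72.5 in GFP replicate 1 and 10.1 and 9.72 in the other GFP libraries. Of 21 ligands 16 could be tested, and 6 were higher and 5 lower in Oct4, 7 and 4 in Sox2, 4 and 5 in Klf4, and 6 and 6 in OSK, with medians of 0.08, 0.54, 0.28 and -0.16. The shares of ligands called were 68.8%, 68.8%, 56.2% and 75%, beside the same shares of all genes. AREG, EREG, HGF, IGF1 and IGF2 had at most 16 reads in any library. FGF1 was at 114 and 97.3 normalised counts in Oct4, 62.8 and 64.2 in Sox2 and 54.2 and 35.2 in OSK, against 0.97 to 10.9 in GFP (limma adjusted p = 8.86e-06, 3.86e-05 and 0.00017). PDGFB rose 11.1-fold in Sox2 (limma adjusted p = 1.69e-07) and fell to 25.5% of GFP in OSK (limma adjusted p = 6.49e-05). BTC, a ligand of the EGF receptor, rose 7.07-fold in Klf4 and 5.22-fold in OSK (limma adjusted p = 7.6e-09 and 2.84e-08).

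Next came the kinases and their adaptors. Of 21 genes for adaptors, RAS, RAF, MEK and ERK, 9 were higher and 1 lower in Oct4, 7 and 3 in Sox2, 3 and 5 in Klf4, and 4 and 7 in OSK, with medians between -0.08 and 0.13. The shares called were 47.6%, 47.6%, 38.1% and 52.4%, against 37.3%, 41.6%, 33.5% and 39.7% of all genes. MAP2K1, which encodes a MEK, rose 2.39-fold in Sox2 (limma adjusted p = 1.71e-08). KSR1, a scaffold for RAF, MEK and ERK, rose 2.68-fold in Klf4 and 3.26-fold in OSK (limma adjusted p = 1.22e-06 and 1.05e-07). MAPK3, which encodes an ERK, fell in OSK to 46.2% of GFP (limma adjusted p = 2.83e-06). In the p38 and JNK branch, 2 of 17 were higher and 4 lower in Oct4, 7 and 5 in Sox2, 6 and 3 in Klf4, and 5 and 5 in OSK, with medians between -0.05 and 0.03. The shares called in this branch were 35.3%, 70.6%, 52.9% and 58.8%, so that the Oct4 share was near that of all genes. MAP2K6, an activator of p38, rose 4.72-fold in Klf4 and 4.33-fold in OSK (limma adjusted p = 1.27e-05 and 1.74e-05). GADD45B, a stress-induced activator of the same branch, fell to 28.2% and 21.3% in those lines (limma adjusted p = 1.86e-07 and 1.23e-08).

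The transcriptional outputs of ERK did not move as 1 group. Of 22, 7 were higher and 9 lower in Oct4, and 11 and 8 in Sox2. In Klf4 6 were higher and 10 lower, and in OSK 6 and 10. The medians were -0.29, 0.43, -0.31 and -0.44. The shares called were 72.7%, 86.4%, 72.7% and 72.7%, against 37.3%, 41.6%, 33.5% and 39.7% of all genes. EGR1, an immediate early transcription factor, was at 1963, 3540 and 3868 normalised counts in GFP, 447 and 617 in Oct4, 1046 and 1079 in Sox2, 177 and 162 in Klf4 and 283 and 207 in OSK. Every line lay below every GFP library, also in Oct4 and Sox2, where DUSP6 was high (log2 changes -2.51, -1.50, -4.14 and -3.63 in Oct4, Sox2, Klf4 and OSK, limma adjusted p from 1.11e-09 to 3.99e-05). FOS, another immediate early gene, was at 484, 511 and 668 in GFP, 77.8 and 111 in Oct4, 157 and 153 in Sox2, 220 and 223 in Klf4 and 280 and 312 in OSK (log2 changes -2.55, -1.82, -1.31 and -0.89, limma adjusted p from 3.88e-09 to 0.000267). The order of the lines thus differed between these 2 genes, with the lowest EGR1 in Klf4 and the lowest FOS in Oct4. EGR2, from the same list, rose in Sox2, to 287 and 241 normalised counts against 21.9 to 31.4 in GFP (limma adjusted p = 5.52e-06). It fell in Klf4 (limma adjusted p = 0.002735) and was not called in Oct4 or OSK. FOSB was called lower in all 4 lines. ETV1, ETV4 and ETV5, ETS factors that follow growth factor signalling, were chosen from this list after their values were seen. ETV5 was at 869 in both Oct4 libraries, 849 and 862 in Sox2, 769 and 767 in OSK and 279 and 338 in Klf4, against 322, 384 and 359 in GFP. It rose 2.45-fold in Oct4, 2.41-fold in Sox2 and 2.16-fold in OSK (limma adjusted p = 3.54e-08, 3.25e-08 and 1.72e-07). ETV4 rose in Oct4 and Sox2 by 2.41-fold and 2.91-fold (limma adjusted p = 0.00117 and 0.000145), and ETV1 rose 5.0-fold in Oct4 (limma adjusted p = 2.8e-09). PHLDA1 rose in all 4 lines, 15.4-fold in Oct4 and 6.18-fold in OSK (limma adjusted p = 1.24e-11 and 1.05e-09). CCND1, which encodes cyclin D1, also rose in all 4, by 4.10-fold in Sox2 and 2.38-fold in Klf4 (limma adjusted p = 9.2e-10 and 4.41e-07).

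The members were last compared by the root mean square difference between 2 genes over the 4 log2 changes from GFP. The measure is not scaled for the size of the changes, so genes that change little lie near one another. These 4 changes share the GFP libraries, so that the measure is a description. The closest pair of members was SPRY2 and SPRED2 (0.38), although their log2 changes in OSK differed in sign (-0.201 and 0.375). The most distant pair was DUSP2 and DUSP6 (5.56). Among phosphatases the closest were DUSP1 and DUSP5 (0.49). Among 11658 other named genes with a mean of at least 100 in some group, the gene nearest to DUSP6 was LIPG, an endothelial lipase, with log2 changes of 2.59, 3.58, -0.04 and 0.41 in Oct4, Sox2, Klf4 and OSK (difference 0.25). STXBP6 was nearest to DUSP1 (0.18) and RARRES2 to DUSP5 (0.29), while the nearest to DUSP2, TMC3, was at 0.53, the largest of these distances. Genes with a mean under 100 in every group were not searched. Nearer matches were found for others, DDX47 for DUSP10 (0.11), VTI1A for SPRED2 (0.06), SLC35B4 for SPRED1 (0.06), PRICKLE1 for SPRY4 (0.04) and LRRFIP2 for DUSP4 (0.04).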

How the data were processed

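RNA-seq libraries of ARPE-19 lines expressing GFP, Oct4, Sox2, Klf4 or OSK were analysed from 1 table of the whole series, with every column mapped to a library by its name. The deposited values are a signal: gene counts that the authors had divided by 1 factor per library and rounded. This was read from the values, of which 100% were whole multiples of the library's step within a tolerance of 0.0061, and the program that gave the factors is not given in the sources used here. STAR 2.7.1a and featureCounts 1.6.2 are named per the submitters' processing notes, as are the builds GRCh38, hg38, GRCm38 and mm10, with no role stated. The use of strand and the annotation used for counting are not given in the sources used here. Symbols were matched to a GENCODE annotation of GRCh38 for position, strand and exon length, and promoter sequences are RefSeq's on GRCh38.p14. Promoter windows were found for 8 of the 10 members. DUSP4 and DUSP5 had none.

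The main test was limma 3.58.1 in R 4.3.3 on log2(value + 1), with a mean per group over all 11 libraries, a trended prior, a filter of at least 10 in at least 2 libraries and Benjamini-Hochberg adjustment over the 18828 genes left. Recovered whole reads were tested with edgeR 4.0.16 (quasi-likelihood) and DESeq2 1.42.0 as alternatives; edgeR called 6774, 7834, 6048 and 7232 genes for Oct4, Sox2, Klf4 and OSK against GFP, where limma called 7018, 7824, 6315 and 7471. Together 21 alternative settings were run: count models, scalings, pseudocounts of 0.5 and 5, other filters, fewer groups, the replicate number as a block, and each library left out. Named genes were all 10 members, EGR1, FOS and the delivered factors, up to 3 called genes with the largest change in each pathway list and comparison with GFP (not all are printed), and the nearest gene to each member (the one for SPRY2 is not reported here). The members and lists were chosen with earlier results of these data known. The counting interval covers counting error only.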

Additional observations from a re-analysis of the deposited data

How the results depend on the processing

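Of 110 pairs of a member and a comparison, 76 were called, and 64 of these stayed called under all 21 settings. None of the 110 changed direction while called. Another 12 lost the call in at least 1 setting, and 12 uncalled pairs gained it. Of all genes, from 21.5% (OSK against Klf4) to 41.7% (Oct4 against Klf4) were called in a comparison. How many of those calls stayed under every setting was not counted. The comparisons reuse the same groups, so the pairs are not independent. The number of members called in either direction left the 1.5-fold range of its main value for OSK against GFP, where it was 5 and became 3 without OSK replicate 1. By direction, so did the number higher in Oct4 than GFP (5 to 3 without Oct4 replicate 1), lower in OSK than GFP (3 to 1 without OSK replicate 1), higher in OSK than Sox2 (3 to 5 without Sox2 replicate 2) and lower in OSK than Klf4 (3 to 1 without either Klf4 replicate). With single libraries left out in turn, between 7 and 9 members were called for Oct4 against GFP, between 6 and 8 for Sox2, 5 or 6 for Klf4, and between 3 and 6 for OSK. A line left with 1 library is assumed to vary like the others. Replicate numbers did not pair the libraries of most groups. The correlation of replicate 1 minus replicate 2 between groups was -0.069 to 0.042, apart from 0.412 for OSK and GFP. Replicate 1 of GFP and replicate 1 of OSK are also the libraries with the most features with a read (42956 and 32493). With the replicate number as a block, the number of members called was 9, 7, 5 and 5 for Oct4, Sox2, Klf4 and OSK against GFP, as without it. The setting with only the compared groups has no counterpart for OSK against the sum, which uses all groups. Over the whole table, the calls for OSK against Klf4 fell from 4049 to 2539 without OSK replicate 2, and by more than 1.5 times without Klf4 replicate 1 as well. Depth limits mainly DUSP2, with 3 and 8 reads in the Sox2 libraries.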
